A study of Aspergillus nidulans with 6 samples.

Results

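The mitochondrially encoded features of Aspergillus nidulans are the 51 entries of the count files that lie on the mitochondrial sequence, out of 10983 features in all. Membership follows the chromosome named in the files, whatever the counts of a feature. The set itself was taken up with earlier results of these data known, among them the excess in a single library described below. By name they fall into 20 features with a plain AN number, 3 with an AN number and the ending -T-E1 (AN20048-T-E1, AN20049-T-E1 and AN20050-T-E1), and 28 transfer RNA (tRNA) names, which also end in -T-E1. The files and the gene table used here give no gene name to the AN20000-series numbers, so these features are described by number and position.

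RNA-seq was done on 3 libraries of strain LO1362 (genotype mcrA+, here WT) and 3 of strain LO8158 (genotype mcrA-, here mcrA-deleted), whose mutation, per the labels, switches on secondary metabolite production. Both strains were grown from 1000000 spores in 150 ml of glucose minimal medium at 37 °C, for 1 day, and both media held uridine, uracil, pyridoxine and riboflavin. With 1 strain per genotype, the deletion and whatever else sets the strains apart cannot be told apart. Since separate cultures are not stated, the spread between libraries that p-values rest on may be technical. AN8694, the mcrA locus from background knowledge, had 655 to 903 counts in the WT libraries and 273 to 422 in the mcrA-deleted libraries. It thus separated the labels without being empty, and the deletion itself, taken from the labels, was not tested.

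Mitochondria of filamentous fungi keep a small genome of their own. It encodes a few subunits of the respiratory chain and of ATP synthase, the ribosomal RNAs and a set of tRNAs, while most mitochondrial proteins are encoded in the nucleus and imported. In budding yeast the mitochondrial genes are read as long transcripts that are cut into mature RNAs, often at tRNAs, and the mature messages carry no poly(A) tail. The libraries here were made from polyadenylated RNA, so the counts follow only the mitochondrial RNA that passed this selection. How much RNA passed for other reasons was not measured.

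The 51 features all lie on the plus strand, between positions 260 and 33225 of the mitochondrial sequence in the files, and cover 27168 bases of it. The plain AN-numbered features span 224 to 4800 bases, the 3 with -T-E1 span 232 to 4539 bases, and the tRNA names 71 to 85 bases. In 5 pairs the features overlap. AN20006 lies wholly inside AN20005, AN20013 inside AN20049-T-E1, and AN20003 and AN20015 inside AN20014, while AN20000 and AN20001 share 1 base. The sources used here do not give how reads in the nested parts were counted, so the level of a nested feature is uncertain. AN20006 takes up 37.4% of the length of AN20005 but had only 0.0940% to 0.651% as many counts, and AN20013 takes up 27.2% of AN20049-T-E1 and had 0.273% to 2.08% as many.

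Mitochondrial RNA was a small part of every library, and by far the most of it stood in mcrA-deleted replicate 1. The 51 features together held 0.0661%, 0.0593% and 0.159% of counts in the WT libraries (replicates 1 to 3, the order used throughout) and 1.06%, 0.0923% and 0.143% in the mcrA-deleted libraries. Total counts per library were 3374534 to 6051839, the lowest in mcrA-deleted replicate 1. The Wilson 95% interval of its share was 1.05% to 1.07%, and the other 5 intervals lay between 0.0574% and 0.163%. Intervals here cover counting error only. The mean share was 0.0948% ± 0.0557 in WT and 0.431% ± 0.543 in the mcrA-deleted group (SD, n = 3 each), and the groups overlapped, since WT replicate 3 stood above mcrA-deleted replicates 2 and 3. The difference did not exceed the spread between libraries (exact two-sided permutation test, p = 0.3, where 0.1 is the smallest p that 3 against 3 libraries allow). Without mcrA-deleted replicate 1 the mcrA-deleted mean was 0.118% ± 0.0359 (SD, n = 2) and the difference 0.0229 percentage points. In RNA from whole mycelium, a different number of mitochondria and a different amount of RNA per mitochondrion cannot be told apart.

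**Figure D1:**
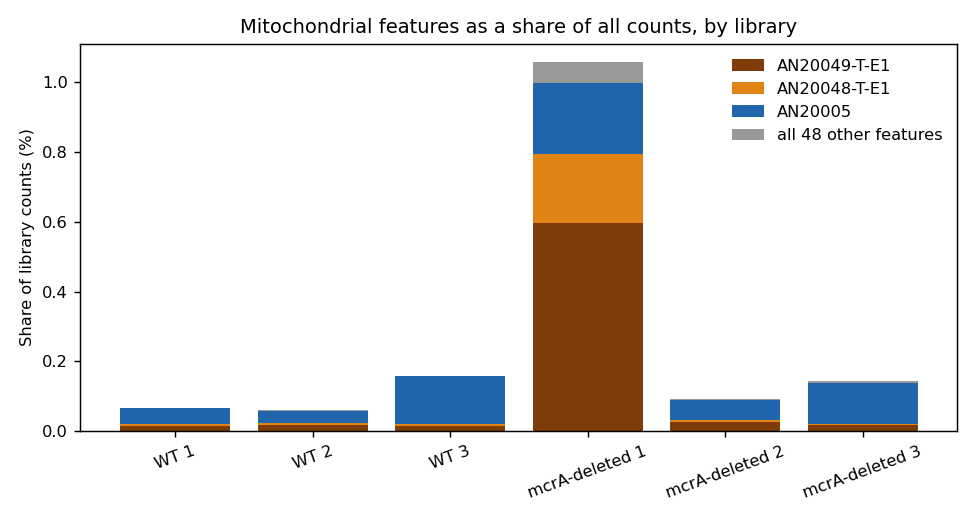
Stacked bars give the share of library counts (%) held by mitochondrial features in each of the 6 libraries, split into AN20049-T-E1, AN20048-T-E1, AN20005 and the 48 others. The bar of mcrA-deleted replicate 1 reaches 1.06%, mostly from AN20049-T-E1, and the other 5 lie between 0.0593% and 0.159%, mostly from AN20005.

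Nearly all mitochondrial counts fell on 3 features, AN20005, AN20049-T-E1 and AN20048-T-E1. The 48 others held 2.23%, 2.34% and 1.15% of mitochondrial counts in the WT libraries and 5.50%, 4.84% and 4.77% in the mcrA-deleted libraries. That share was higher in all mcrA-deleted libraries than in all WT libraries, with means of 5.04% ± 0.402 and 1.91% ± 0.657 (SD, n = 3 each). The 3 features were set apart after their counts were seen, so no test is given. A share of mitochondrial counts leaves aside how much mitochondrial RNA a library held.

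AN20005 (7700 to 9920) had the highest level per length in 5 of the 6 libraries. Its counts were 2127, 2198 and 6573 in the WT libraries against 6916, 2738 and 5108 in the mcrA-deleted libraries. Its level was 208.6, 163 and 716 CPM per kb (counts per 1000000 and per kilobase of feature, with library sizes scaled by edgeR's trimmed mean) in WT, and 889, 240 and 470.5 in the mcrA-deleted libraries. WT replicate 3 lay among the mcrA-deleted values, so the groups overlapped. The feature made up 60.2% to 86.2% of mitochondrial counts in all libraries except mcrA-deleted replicate 1, where it was 19.4%. Tested with edgeR's quasi-likelihood fit and Benjamini-Hochberg adjustment, its log2 fold change, mcrA-deleted over WT, did not pass (0.56, SE 0.654, adjusted p = 0.549). Without mcrA-deleted replicate 1 it was -0.03, and without WT replicate 3 it was 1.52 (adjusted p = 0.0558 in the same edgeR test; 0.0558 to 0.974 over all refits).

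The long -T-E1 features behaved differently from AN20005. AN20049-T-E1 (19806 to 24344) had 732, 1075 and 731 counts in WT and 20103, 1203 and 770 in the mcrA-deleted libraries. AN20048-T-E1 (15231 to 16659) had 204, 234 and 238 counts in WT and 6710, 388 and 146 in the mcrA-deleted libraries. In both, mcrA-deleted replicate 1 stood alone and the other 5 libraries lay together. Per length the pair were close to each other: AN20049-T-E1 stood at 34.7 to 51.6 CPM per kb outside mcrA-deleted replicate 1 and AN20048-T-E1 at 20.9 to 52.9, against 1265 and 1341 CPM per kb in that library. There, both lay above AN20005. The log2 fold changes were 3.58 (SE 1.31) and 3.85 (SE 1.43), and neither passed (adjusted p = 0.0769 and 0.0798, edgeR). Without mcrA-deleted replicate 1 they were 0.19 (SE 0.2) and 0.17 (SE 0.39). The third feature of this name, AN20050-T-E1 (7120 to 7351), had 2, 1 and 1 counts in WT and 8, 3 and 3 in the mcrA-deleted libraries.

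**Figure D2:**
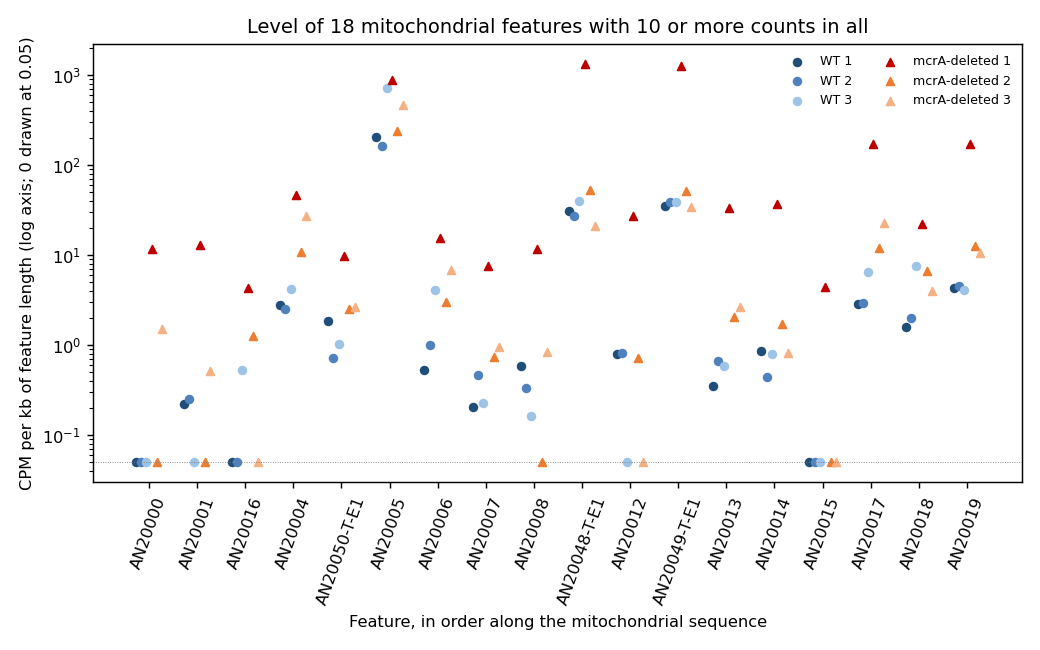
Points give the level in CPM per kb of feature length (log axis, values of 0 drawn at 0.05) of the 18 mitochondrial features with at least 10 counts over all libraries, in their order along the molecule, with circles for WT and triangles for mcrA-deleted libraries. In every one of the 18 the triangle of mcrA-deleted replicate 1 is the highest point, by a narrow margin at AN20005 and by a wide one at AN20048-T-E1 and AN20049-T-E1.

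Transfer RNA names were nearly empty. Of the 28, 16 had counts, all of them in mcrA-deleted replicate 1 alone, where they summed to 30 counts and no tRNA had more than 4 (tT(UGU)3mt-T-E1). The other 5 libraries had 0 counts, which allows a share of up to 4.96e-05% to 6.79e-05% of a library (3 counts). Against a floor of 3 counts over these 5 libraries, the share in mcrA-deleted replicate 1 was 73.9-fold higher, with the 30 counts taken as exact. Within that library the tRNA names were 0.0841% of mitochondrial counts, and the AN-numbered features, with or without the ending, were 99.9%. The share of tRNA names in mitochondrial counts was 0% in WT and 0.0280% ± 0.0485 in the mcrA-deleted group (SD, n = 3 each; exact two-sided permutation test, p = 1.0). With counts in 1 library alone, every relabelling gives the same absolute difference, so this p was fixed in advance and decides nothing. The 180 nuclear tRNA features had 0 counts in mcrA-deleted replicate 1 and 13 over the other 5 libraries, a ratio of shares of 0 (exact binomial 95% interval 0 to 2.42), so no difference in either direction was detectable for them.

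mcrA-deleted replicate 1 was set against its own group, feature by feature. Its mitochondrial share was 9.09 times that of replicates 2 and 3 pooled, and 26.3 times without AN20005. AN20049-T-E1 and AN20048-T-E1 together made up 81.6% of this excess and AN20005 12.9%. Every one of the 38 features with any count had its highest share in this library, and 21 had counts nowhere else. A library has no replicate of its own, so no test was made.

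The size of the excess was uneven over the molecule. AN20005 was 2.44 times higher in mcrA-deleted replicate 1 than in replicates 2 and 3 pooled (exact binomial 95% interval 2.36 to 2.52), and AN20004 2.41 times (1.96 to 2.96). AN20006, AN20050-T-E1 and AN20016 had ratios of 3.04 (1.95 to 4.76), 3.69 (1.12 to 12.9) and 6.46 (1.48 to 38.7). These 5 are consecutive AN-numbered features, from position 4929 to 9920, a grouping noticed after the values were seen. AN20018, near the end of the sequence, had a ratio of 4.03 (2.27 to 7.28).

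Elsewhere the ratios were larger. AN20049-T-E1 had 28.2 (26.9 to 29.6), AN20014 28.1 (21.6 to 37.2), AN20008 28.2 (12.2 to 79.7) and AN20048-T-E1 34.8 (31.9 to 38.1). AN20001 and AN20012, which had 5 and 3 counts in replicates 2 and 3, had 50.4 (20.8 to 159) and 72.0 (23.8 to 357). In between lay AN20019 at 14.4 (11.4 to 18.3), AN20013 at 13.9 (9.31 to 21.6), AN20000 at 15.2 (3.32 to 141), AN20017 at 9.59 (6.67 to 14.1) and AN20007 at 8.62 (3.95 to 20.8). The intervals of AN20005 and AN20049-T-E1 do not meet, so their ratios differed beyond counting error. Of the other AN-numbered features, AN20015, AN20003, AN20011, AN20002 and AN20010 had counts in this library alone (14, 8, 5, 4 and 3), and AN20009 had 0 counts in all 6 libraries.

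Against all tested features these ratios were rare. At least 4 times the mean CPM of replicates 2 and 3 was reached in mcrA-deleted replicate 1 by 27 of 7852 tested features (0.344%), of which 7 were mitochondrial and 20 nuclear. Among the 10 highest ratios of all tested features, 6 were mitochondrial. The mitochondrial set was taken up with this excess known, so these counts and ranks are a description and no separate evidence. Of the 6, AN20013 and AN20017 passed the filter on low counts only through the mcrA-deleted libraries. The median ratio of the nuclear features was 0.994. TER-T-E1, a nuclear feature whose name has the same ending, had 46 counts in this library against 15 and 25 in replicates 2 and 3, and 23, 54 and 52 in WT. The 10 highest nuclear features held 6.99% of its counts, against 6.74% to 11.1% in the other libraries. The part of library preparation in the excess was not tested.

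A lesser unevenness set WT replicate 3 apart. AN20005 was 3.42 times higher there than in WT replicates 1 and 2 pooled (3.29 to 3.55), its nested feature AN20006 4.50 times (1.70 to 13.2) and AN20018 3.66 times (1.40 to 10.2). AN20048-T-E1 was 1.22 times higher (1.04 to 1.44), and AN20049-T-E1 was not higher, with a ratio of 0.910 (0.834 to 0.992). Within the mcrA-deleted group, replicate 3 over replicate 2 gave 2.08 (1.99 to 2.18) for AN20005, 2.63 (1.94 to 3.59) for AN20004 and 2.40 (1.20 to 5.05) for AN20006, against 0.714 (0.651 to 0.782) for AN20049-T-E1, 0.420 (0.344 to 0.509) for AN20048-T-E1 and 0.504 (0.277 to 0.886) for AN20014. Between mcrA-deleted replicates 2 and 3, AN20005 and both long -T-E1 features thus differed in opposite directions, whereas in WT replicate 3 AN20048-T-E1 was higher like AN20005, by less.

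Beside this excess of 1 library, 4 of the 10 tested mitochondrial features separated the genotypes in all libraries; 24.9% of all tested features had every mcrA-deleted CPM above every WT CPM. AN20004, AN20013, AN20017 and AN20019 were higher in the mcrA-deleted strain, both with all 6 libraries and without mcrA-deleted replicate 1, as were 12.8% of all tested features. AN20013 and AN20017 passed the filter on low counts only through the mcrA-deleted libraries, so the count of 4 leans towards features that are higher there. The 4 lie apart from each other on the molecule, at 5641 to 6738, 22594 to 23826, 31587 to 31811 and 32464 to 33225.

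AN20004 had 14, 17 and 19 counts in WT and 181, 62 and 146 in the mcrA-deleted libraries, which is 3.05, 2.81 and 4.60 CPM against 51.7, 12.1 and 29.9 CPM. All mcrA-deleted libraries lay above all WT libraries. Means were 31.2 ± 19.9 CPM for the mcrA-deleted group against 3.48 ± 0.972 CPM for WT (SD, n = 3 each). Its log2 fold change was 3.16 (SE 0.55; adjusted p = 0.00645 in edgeR's quasi-likelihood test), and 2.59 (SE 0.455; adjusted p = 0.0124, edgeR) without mcrA-deleted replicate 1. The call held in all 12 fits that were run (adjusted p 1.97e-07 to 0.0336).

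AN20013, nested in AN20049-T-E1, had 2, 5 and 3 counts in WT and 146, 13 and 16 in the mcrA-deleted libraries. It was higher in every mcrA-deleted library, with a log2 fold change of 4.46 (SE 1.30; adjusted p = 0.0386, edgeR), or 2.06 (SE 0.495; adjusted p = 0.0295) without mcrA-deleted replicate 1. The feature around it stood at 0.19 in that second fit. The call was lost without WT replicate 1, 2 or 3 (adjusted p = 0.0968, 0.108 and 0.0661; 0.00016 to 0.108 over all refits).

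AN20017, the shortest of the 4 at 225 bases, had 3, 4 and 6 counts in WT and 135, 14 and 25 in the mcrA-deleted libraries. The groups did not overlap, with a log2 fold change of 4.04 (SE 1.14; adjusted p = 0.0349, edgeR), or 2.09 (SE 0.554; adjusted p = 0.039) without mcrA-deleted replicate 1. Leaving out WT replicate 1 or 2 ended the call (adjusted p = 0.0895 and 0.111; 0.000239 to 0.111 over all refits).

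AN20019 had 15, 21 and 13 counts in WT and 457, 49 and 39 in the mcrA-deleted libraries. Its WT libraries were even, at 3.29 ± 0.163 CPM (SD, n = 3), and all mcrA-deleted libraries lay above them. It rose by a log2 fold change of 3.87 (SE 1.17; adjusted p = 0.0438, edgeR), or 1.40 (SE 0.29; adjusted p = 0.0194) without mcrA-deleted replicate 1. The call was lost without WT replicate 1, 2 or 3 (adjusted p = 0.103, 0.122 and 0.0769, edgeR) and with the replicate number as a block (2.95, adjusted p = 0.06; 0.0194 to 0.122 over all refits).

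**Figure D3:**
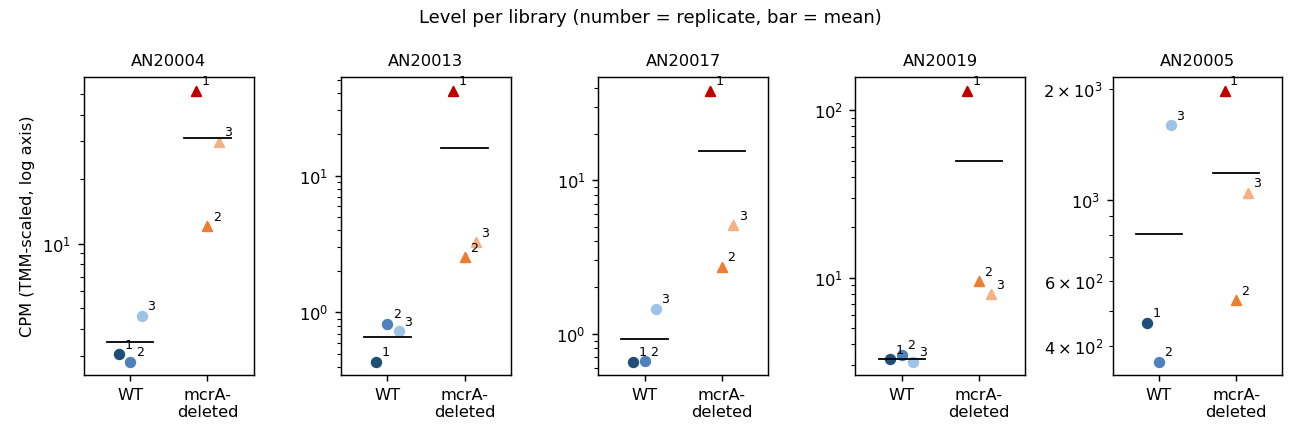
Points give the TMM-scaled level in CPM (log axis, a scale of its own in each panel) of AN20004, AN20013, AN20017, AN20019 and AN20005 in each library, with the replicate number beside the point and a bar at the group mean. In the first 4 panels all mcrA-deleted points lie above all WT points, and in the AN20005 panel the groups overlap.

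The same 4 features were also a larger part of the mitochondrial counts in every mcrA-deleted library. AN20017 made up 0.0958%, 0.111% and 0.0786% of mitochondrial counts in the WT libraries and 0.378%, 0.308% and 0.395% in the mcrA-deleted libraries. AN20004 made up 0.249% to 0.473% in WT and 0.507%, 1.36% and 2.31% in the mcrA-deleted libraries. For AN20013 the ranges were 0.0393% to 0.139% and 0.253% to 0.409%, and for AN20019 they were 0.170% to 0.585% and 0.617% to 1.28%. The groups did not overlap in any of the 4. These features are named here because their CPM had already separated the groups, so the shares, made from the same counts, are a description and no separate evidence. Within the mcrA-deleted group AN20017 was the most even of the 4, and AN20004 had its lowest value in replicate 1, where the -T-E1 features took up 75.2% of mitochondrial counts.

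**Figure D4:**
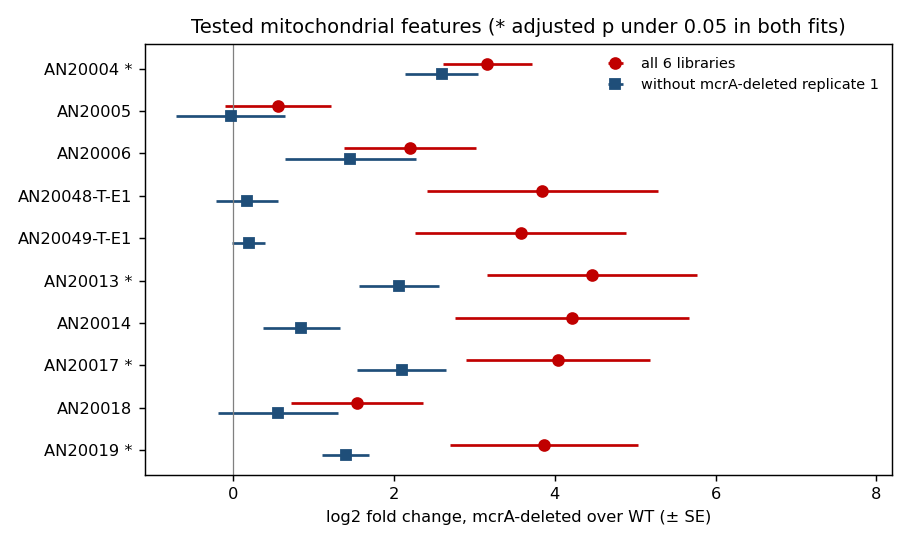
Points give the log2 fold change, mcrA-deleted over WT, with its standard error as the bar, for the 10 tested mitochondrial features, once with all 6 libraries (red circles) and once without mcrA-deleted replicate 1 (blue squares). AN20004 moves little between the fits (3.16 and 2.59), whereas AN20049-T-E1 falls from 3.58 to 0.19 and AN20048-T-E1 from 3.85 to 0.17.

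In the test over all features, 10 of the 51 mitochondrial features passed the filter on low counts and 41 did not. Of the 10, 4 were called higher at an adjusted p under 0.05 and 0 lower (edgeR). At an unadjusted p under 0.05, 8 were higher and 0 lower (edgeR), with the share over all features not computed. DESeq2, a different set of tested features, gave an adjusted p to 15 mitochondrial features. It called 5 of them higher and 0 lower, beside 15.8% and 14.0% of all features. Only 3 of these 5 were among the 4 called by edgeR, and AN20019 had no adjusted p in DESeq2. Over all 7852 tested features 29.8% were called by edgeR, 16.1% higher and 13.7% lower. AN20006, AN20013 and AN20017 passed the filter only through the mcrA-deleted libraries, so the count of 10 leans towards features that are higher there. With no filter on counts, 38 mitochondrial features were tested and the same 4 were called, a share near the 13.3% of all features called higher in that fit. Without mcrA-deleted replicate 1 the same 4 were called again, where 14.0% of all tested features were called higher. Only AN20004 of the 10 was called higher without WT replicate 1 or without WT replicate 2, where 11.2% and 9.47% of all tested features were, so that share was near the background. Without mcrA-deleted replicate 3, 7 of the 10 were called higher, and 10.9% of all tested features.

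The remaining tested features did not pass. AN20014 (26314 to 31113), the longest, had 19, 13 and 16 counts in WT and 619, 42 and 19 in the mcrA-deleted libraries, with a log2 fold change of 4.22 (SE 1.45; adjusted p = 0.0641, edgeR) that was 0.85 without mcrA-deleted replicate 1. By CPM its WT replicate 1 (4.14) stood above mcrA-deleted replicate 3 (3.89), so the groups overlapped. AN20006 had 2, 5 and 14 counts in WT and 45, 13 and 28 in the mcrA-deleted libraries, overlapping at WT replicate 3, with a log2 fold change of 2.20 (SE 0.817; adjusted p = 0.0795, edgeR), and 1.46 without mcrA-deleted replicate 1. AN20018 (31917 to 32327) had 3, 5 and 13 counts against 32, 14 and 8, also overlapping, with a log2 fold change of 1.53 (SE 0.823; adjusted p = 0.194, edgeR), and 0.55 without mcrA-deleted replicate 1. With library size alone AN20014 and AN20006 passed as well (adjusted p = 0.0444 and 0.0469, edgeR; ranges over all refits 0.0369 to 0.23 and 0.0234 to 0.225).

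Below the filter, the AN-numbered features with counts outside mcrA-deleted replicate 1 were few. Without that library, AN20007 had 9 counts in the mcrA-deleted group and 5 in WT, a ratio of shares of 3.00 (0.904 to 11.4). AN20001 had 5 and 5 counts (1.67, 0.384 to 7.25), AN20008 6 and 8 (1.25, 0.358 to 4.11) and AN20012 3 and 7 (0.715, 0.119 to 3.13). AN20050-T-E1 had 6 and 4 (2.5, 0.593 to 12.1) and AN20016 3 and 1 (5.0, 0.402 to 263), while AN20000 had 2 and 0, at or under the floor of 3 counts. All these intervals include 1, so a genotype difference was not detectable at this depth.

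The nuclear genes of mitochondrial proteins leaned the other way. Of 25 such genes, picked by gene symbol and all tested, 15 were lower in the mcrA-deleted libraries and 0 higher (edgeR). Of all tested features 13.7% were lower and 16.1% higher. DESeq2 called 19 of the 25 lower and 0 higher, beside 14.0% and 15.8% of all features. At an unadjusted p under 0.05 in edgeR, 20 were lower and 0 higher, with the share over all features not computed. The median log2 fold change of the 25 genes in edgeR was -0.58, against 0.00 over all tested features. The same 15 were lower without mcrA-deleted replicate 1, where 11.3% of all tested features were. With library size alone, which moved the median of all features by 0.171, 7 of the 25 were lower, beside 8.15% lower and 21.0% higher of all features. Without WT replicate 1, 7 were lower, and 8 without WT replicate 2, mcrA-deleted replicate 2 or mcrA-deleted replicate 3, beside 7.75% to 8.56% of all features in these 4 fits. Roles given below are those of the genes of the same name in budding yeast.

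Among the chaperones and import components, 9 of 12 were lower. hsp60 (AN6089, chromosome I), the mitochondrial matrix chaperonin, had 1948, 1891 and 2230 CPM in the WT libraries against 996, 839 and 561 CPM in the mcrA-deleted libraries. The groups did not overlap, with a log2 fold change of -1.34 (SE 0.244; adjusted p = 0.0074, edgeR). hsp78 (AN1163, chromosome VIII), a matrix chaperone that resolves aggregates, fell by 1.45 on the log2 scale (SE 0.365). Its WT libraries were uneven, at 1453, 1034 and 2691 CPM, and without WT replicate 3 its log2 fold change was -0.97 (adjusted p = 0.0193, edgeR). On the same scale tom70 (AN7687, chromosome IV), an import receptor, fell by 0.54, and tom40 (AN6510, chromosome I), the outer membrane pore, by 0.52. hsp60 was called lower in all 12 fits, hsp78 in 9, tom40 in 7 and tom70 in 5; with library size alone tom70 and tom40 had an adjusted p of 0.105 each (edgeR; 0.0118 to 0.106 and 0.00152 to 0.105 over all refits).

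Both listed genes of mitochondrial ribosomal proteins were lower. mrpl4 (AN5897), of the large subunit, went from 77.6 ± 7.06 to 46.8 ± 4.90 CPM (SD, n = 3 each) and rsm25 (AN4434), of the small subunit, from 53.1 ± 5.83 to 30.0 ± 7.30 CPM. They were called lower in 12 and 9 of 12 fits. Of the respiratory chain and ATP synthase genes 3 of 8 were lower: rip1 (AN2306), the Rieske iron-sulfur subunit of the cytochrome bc1 complex (-0.63, SE 0.182), cox15 (AN1915), needed for the haem of cytochrome oxidase (-0.66, SE 0.165), and rcf1 (AN3831), a factor of respiratory supercomplexes (-0.75, SE 0.164). Of these, rcf1 was called lower in all 12 fits, cox15 in 8 and rip1 in 7. In the tricarboxylic acid cycle 1 of 3 was lower, cit1 (AN8275), citrate synthase, from 1103 ± 79.7 to 543 ± 169 CPM (SD, n = 3 each), in 9 of 12 fits. The 1 gene of the 25 with a log2 fold change above 0 was nde1 (AN6125), an external NADH dehydrogenase (0.08, SE 0.149), named after its value was seen. Of the 25 genes, 5 overlapped another feature on the opposite strand. They include tim21 (AN6034), which is named further below, and none of the other genes named in the text.

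**Figure D5:**
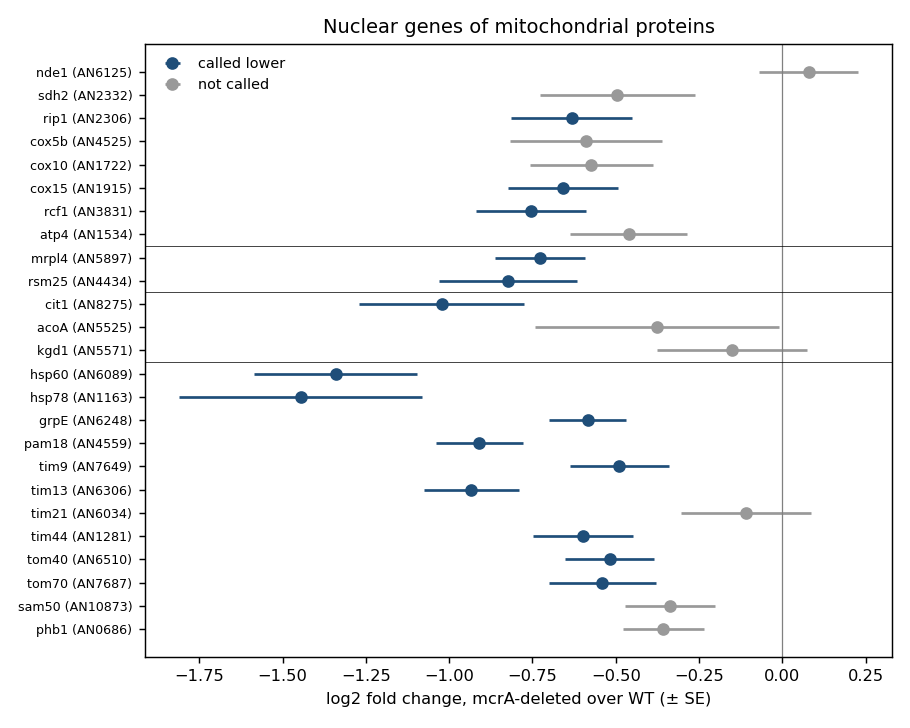
Points give the log2 fold change, mcrA-deleted over WT, with its standard error as the bar, of 25 nuclear genes of mitochondrial proteins, grouped by thin lines into respiratory chain and ATP synthase, ribosomal proteins, tricarboxylic acid cycle, and chaperones and import. The 15 genes in blue were called lower, the grey ones were not called, and only nde1 lies above 0.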

How the data were processed

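Libraries were strand-specific and made from polyadenylated RNA, per the labels' protocols. The authors deposited raw read counts per feature with no normalization, and CASAVA and HISAT (version 1) were used, per the submitters' processing notes. Which program counted reads, whether it used strand, how it treated reads that map more than once, and which annotation release it read are all not given in sources used here. Coordinates follow the files, which name FGSC A4 as the genome. There were 0 columns of per-sample values left unmapped.

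All 10983 features were fitted with edgeR 4.0.16 in R 4.3.3: trimmed-mean (TMM) scaling, filterByExpr with a minimum count of 10, and the quasi-likelihood test with genotype as the only term and Benjamini-Hochberg adjustment over 7852 tested features. CPM use TMM-scaled library sizes, and shares use total counts. The scripts were tested on simulated data. Exact permutation tests used scipy 1.17.1, and exact binomial intervals compare pooled counts. Alternatives were library size alone, DESeq2 1.42.0, no count filter, a replicate block, scaling without mitochondrial features and leaving out each library. Chi-square over its degrees of freedom was 9.01 to 48.2 between replicates of a group, above sampling noise. Each library was taken as 1 sample, though this spread does not show that the libraries came from separate cultures.

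The members and lists were chosen with earlier results of these data known. Mitochondrial features with at least 10 counts in all are given by library. Nuclear lists had been set by words of gene descriptions; as neither the files nor the RefSeq table (assembly ASM1142v1, used for names only) holds descriptions, 25 symbols of that table stood in for them, all matched to the files, and up to 4 called genes of highest level per list are named. No alternative oxidase or mitochondrial RNA polymerase symbol was found in it.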

Additional observations from a re-analysis of the deposited data

How the results depend on the processing

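The number of mitochondrial features called higher ranged from 1 to 7 when 1 library was left out, and was 6 with library size alone, 5 by DESeq2 and 3 with the replicate block, against 4. Lower calls stayed at 0. Over all features the share called higher was 9.47% to 18.6% when 1 library was left out, against 16.1%. It was 21.0% with library size alone, 15.8% by DESeq2 and 17.0% with the replicate block. DESeq2 gave no adjusted p to 23 of the mitochondrial features, AN20019, AN20014, AN20048-T-E1 and AN20049-T-E1 among them. The number of nuclear genes called lower was 7 with library size alone, 7 to 15 when 1 library was left out, 19 by DESeq2 and 13 with the replicate block, against 15. In the same order, the share of all features called lower was 8.15%, 7.75% to 14.6%, 14.0% and 14.9%, against 13.7%. The difference in mitochondrial share, 0.336 percentage points, ranged from 0.0229 to 0.506 when 1 library was left out, and that in the tRNA-named share from 0 to 0.0420. The excess of mcrA-deleted replicate 1 was 9.40 times with TMM sizes and 26.3 times without AN20005. Log2 fold changes turned sign for AN20005 (-0.035 to 1.52 when 1 library was left out), for kgd1 (AN5571; 0.0062 with library size alone, -0.310 to 0.0693 when 1 library was left out) and for tim21 (AN6034; 0.0553 with library size alone), none of them called. Of the other refits of single genes, 311 kept their direction and side of the threshold, 52 lost a call and 14 gained one. The cause of these changes was not tested. At this depth 41 of the 51 mitochondrial features were too low to test.

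Replicate numbers are shared by the groups in the titles, but the deviations of same-numbered libraries correlated at 0.263, -0.076 and 0.168 over 7852 features, so the numbers were not taken as pairs. With the replicate block AN20019 was not called (2.95, adjusted p = 0.06 in edgeR's quasi-likelihood test; 0.0194 to 0.122 over all refits), and the difference in mitochondrial share, 0.336, had p = 0.5 by exact permutation of the genotype within replicate number, where 0.25 is the smallest possible. The same block left the tRNA-named share, 0.0280, at p = 1.0 by exact permutation, a value fixed in advance because 1 library alone had counts.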
